A study of Homo sapiens with 12 samples.

Results

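Aminoacyl-tRNA synthetases are the enzymes that join each amino acid to its transfer RNA, and the family was followed here as 35 genes, 19 for enzymes of the cytosol and 16 for enzymes of the mitochondrion. The genes were taken by name, with earlier results of these data known. A gene counted as measured where a probe set of the array was paired with that gene alone, older symbols without the final 1 included, and of several such probe sets the one brightest on average across 12 arrays stood for it. By this rule 32 of the 35 genes were measured, 17 cytosolic and 15 mitochondrial, out of 19775 genes in all. MARS1, QARS1 and TARS2, which charge methionine, glutamine and mitochondrial threonine tRNA, had only probe sets that share several gene symbols and are not analysed here.

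INA-6 is a human multiple myeloma line, a cancer of plasma cells, and was kept in medium with fetal calf serum and interleukin-6, so that every group also received this cytokine. The groups were cells given DMSO, the solvent control, cells given the Raf inhibitor SB590885, and cells given the MEK inhibitor PD325901, each with 4 Affymetrix arrays. The 4 arrays of a group are biological replicates by the design text. Since all come from 1 cell line, p-values set a difference against the spread of these arrays and do not speak for other lines. No dose or treatment time is given in the sources, and a second label adds an R, with no word on its meaning, to replicates 3 and 4 of each group.

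The cytosolic enzymes supply the ribosomes of the cytoplasm, while the mitochondrial enzymes are also encoded in the nucleus and are imported to serve the few proteins made inside the organelle; GARS1 and KARS1 are listed as cytosolic although each makes enzyme for both places. When charged tRNA runs short, uncharged tRNA activates the kinase GCN2, and this leads to more of the transcription factor ATF4, which acts through amino acid response elements at genes of amino acid uptake, amino acid synthesis and cytosolic tRNA charging. Raf activates MEK, which activates the kinase ERK, a driver of growth, and plasma cells, which secrete large amounts of antibody, place a heavy load on translation.

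Promoters are shown first, because several cytosolic members are known targets of ATF4 and the letters of its element can be looked for in each of them. RefSeq promoter windows (build GRCh38.p14, from 250 bases before a transcription start to 50 after it) were matched for 27 of the 32 measured members, in 36 windows. The amino acid response element was searched as TGATGNAA on both strands, which reads TTNCATCA on the other strand. It stood in 3.62% of 35116 windows of all genes and in the windows of 4.46% of 27305 genes. Among the cytosolic members it was found in 6 of 14 genes with a window, AARS1, CARS1, GARS1, IARS1, NARS1 and TARS1, and among the mitochondrial members in 1 of 13, YARS2. The stretches of 80 bases below carry these matches in capitals, 5' to 3' on the strand of the gene; a match is a description of letters and not of a bound site.
GARS1, chr7:30594785-30594864, plus strand: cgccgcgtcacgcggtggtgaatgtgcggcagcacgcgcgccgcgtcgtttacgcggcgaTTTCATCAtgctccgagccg
CARS1, chr11:3057406-3057485, minus strand: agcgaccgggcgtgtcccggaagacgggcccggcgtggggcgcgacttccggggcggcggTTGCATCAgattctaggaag
AARS1, chr16:70289674-70289753, minus strand: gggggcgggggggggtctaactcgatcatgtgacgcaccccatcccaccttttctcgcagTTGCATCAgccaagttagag
IARS1, chr9:92293691-92293770, minus strand: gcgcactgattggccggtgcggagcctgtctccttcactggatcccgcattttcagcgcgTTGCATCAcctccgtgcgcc
TARS1, chr5:33440907-33440986, plus strand: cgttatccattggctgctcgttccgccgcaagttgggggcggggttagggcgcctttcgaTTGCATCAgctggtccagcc
NARS1, chr18:57621809-57621888, minus strand: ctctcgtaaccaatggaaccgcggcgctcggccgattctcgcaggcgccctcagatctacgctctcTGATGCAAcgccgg
YARS2, chr12:32756068-32756147, minus strand: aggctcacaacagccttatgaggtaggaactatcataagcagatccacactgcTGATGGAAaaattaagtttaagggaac

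The matches lay close to the transcription start in 5 of these 7 genes. They began at position -33 in GARS1, -2 in CARS1, -13 in IARS1, 3 in TARS1 and 15 in NARS1, counted from the start with no position 0, and farther out at -187 in AARS1 and -197 in YARS2. In 4 genes (CARS1, AARS1, IARS1 and TARS1) the matched letters were the same 8, TTGCATCA, and the NARS1 match, TGATGCAA, is the same 8 read on the other strand. For contrast, the last 80 bases before the start are given for SARS1, which rose after SB590885 without a match in either of its windows (the window of the later start is shown), and for FARSA, which fell and had none.
SARS1, chr1:109213838-109213917, plus strand: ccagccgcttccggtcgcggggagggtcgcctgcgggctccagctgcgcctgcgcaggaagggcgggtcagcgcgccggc
FARSA, chr19:12933712-12933791, minus strand: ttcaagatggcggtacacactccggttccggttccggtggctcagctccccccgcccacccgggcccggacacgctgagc

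Values are log2 expression values as deposited, on which a step of 1 is a 2-fold difference, and array medians lay between 6.88 and 6.97. The 12-array means of the members lay between 7.57 for PARS2 and 13.63 for KARS1, against a median of 6.92 over all probe sets. The 9 plasma cell markers had array medians of 11.14 to 12.1, while those of B cell, T and NK cell, monocyte and fibroblast markers lay between 6.59 and 7.28. DUSP6, a phosphatase that ERK switches on and that feeds back on it, fell by 0.97 with SB590885 (limma adjusted p = 0.00639). It fell by 2.64 with PD325901 (limma adjusted p = 4.6e-06), the largest fall there among 10 genes of ERK output. Of these 10, 3 fell and 0 rose with SB590885 at a limma adjusted p under 0.05 (median -0.22). With PD325901 5 fell and 0 rose (median -0.8). Of all genes, 1.69% fell with SB590885 and 0.506% with PD325901. The first principal component, with 46.7% of the variance, separated the arrays with the R mark from those without it. DMSO replicate 2 and PD325901 replicate 2 stood apart by their interferon response genes, with medians over 22 genes of 11.35 and 11.07 against 7.11 to 8.22 on the other 10 arrays.

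After SB590885 the cytosolic enzymes split in both directions, and the mitochondrial enzymes leaned to lower values. GARS1, the glycine enzyme, and SARS1, the serine enzyme, rose against DMSO, and LARS1, the leucine enzyme, and FARSA, the alpha subunit of the phenylalanine enzyme, fell. These 4 were all cytosolic, so that 4 of 17 cytosolic and 0 of 15 mitochondrial members passed at an adjusted p under 0.05 (limma with Benjamini-Hochberg adjustment over 19775 genes). They made up 12.5% of the 32 members, against 3.28% of all genes tested (1.59% higher, 1.69% lower). This division by compartment did not hold with the replicate number as a block, a fit that compares same-numbered arrays and calls 9 cytosolic and 6 mitochondrial members (15 of 32, 46.9%, beside 18.9% of all genes). The difference between the compartments was not tested. In RNA from whole cultures, fewer cells with a transcript and less transcript per cell cannot be told apart.

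GARS1 read 12.23, 12.28, 12.1 and 12.12 on DMSO replicates 1 to 4, and 12.6, 12.75, 12.46 and 12.47 on the SB590885 replicates. All SB590885 arrays lay above all DMSO arrays, and in both groups the pair with the R mark was the lower pair. GARS1 rose by 0.39 (SE 0.08, 1.31-fold, limma adjusted p = 0.0286), with 0.42 in the arrays without the R mark and 0.35 in those with it. In the fit without the replicate block, the call did not survive leaving out DMSO array 1 (adjusted p = 0.0695), 3 (0.0807) or 4 (0.0816), or SB590885 array 1 (0.0867) or 2 (0.0871). With the block over all arrays GARS1 was called, and no block fit left out a single array. The array holds 1 probe set for GARS1, so no second probe set could be set beside it.

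SARS1 read 10.76, 10.89, 10.82 and 10.89 with DMSO, and 11.05, 11.26, 11.18 and 11.17 with SB590885. Here too the groups did not overlap, and all 4 same-numbered pairs were higher, by 0.28 to 0.37. SARS1 rose by 0.32 (SE 0.06, 1.25-fold, limma adjusted p = 0.0195), by nearly the same amount without the R mark (0.33) and with it (0.32). Its other probe set, of lower signal, was higher by 0.24 in 4 of 4 pairs. Without the block, taking out DMSO array 1 (adjusted p = 0.0706) or 3 (0.0542) or SB590885 array 2 (0.0685) removed the call. With the block over all arrays SARS1 was called.

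CARS1, the cysteine enzyme, was the other member with all SB590885 arrays above the DMSO arrays. It read 11.51, 11.55, 11.29 and 11.3 with DMSO, and 11.81, 11.77, 11.69 and 11.62 with SB590885. The difference of 0.31 (SE 0.09) did not pass (limma adjusted p = 0.11) and passed with the replicate number as a block (adjusted p = 0.000449). AARS1, the alanine enzyme, was higher by 0.16 (SE 0.06, limma adjusted p = 0.256) and passed in neither fit. Members higher than DMSO on all arrays thus numbered 3 of 32, against 4.45% of all genes.

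LARS1 read 11.4, 11.34, 11.11 and 11.36 with DMSO, and 10.81, 10.92, 10.91 and 10.85 with SB590885. Every SB590885 array lay below every DMSO array, and the narrowest gap was between DMSO replicate 3 and SB590885 replicate 2. LARS1 fell by 0.43 (SE 0.09, 0.741-fold, limma adjusted p = 0.0216), by 0.51 without the R mark and 0.35 with it. The probe sets of this gene did not give 1 value: the other 3 differed by -0.22, 0.07 and -0.06 in order of signal, and the mean over all 4 gave -0.16 (limma adjusted p = 0.302). Omitting DMSO array 1 (adjusted p = 0.0769), 2 (0.0634) or 4 (0.0636), or SB590885 array 1 (0.0717) or 2 (0.0583), also ended the call in the fit without the block. With the block over all arrays LARS1 was called.

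The phenylalanine enzyme of the cytosol is built from an alpha subunit, FARSA, and a beta subunit, FARSB, and both were lower. FARSA read 10.13, 10.1, 10.03 and 9.98 with DMSO, and 9.62, 9.81, 9.72 and 9.71 with SB590885, with no overlap. FARSA fell by 0.35 (SE 0.07, 0.787-fold, limma adjusted p = 0.0191), and its other probe set was lower by 0.45, also with no overlap. FARSB read 11.7 to 11.92 with DMSO and 11.38 to 11.59 with SB590885. Its difference of -0.36 (SE 0.09) narrowly missed the threshold (limma adjusted p = 0.0548) and passed with the block (adjusted p = 0.0016), while its other probe sets, of low signal, gave -0.10 and -0.03. In the fit without the block, the call of FARSA was lost when DMSO array 1 (adjusted p = 0.0682) or 2 (0.0581) or SB590885 array 1 (0.0648) was taken out. With the block over all arrays FARSA was called.

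**Figure D1:**
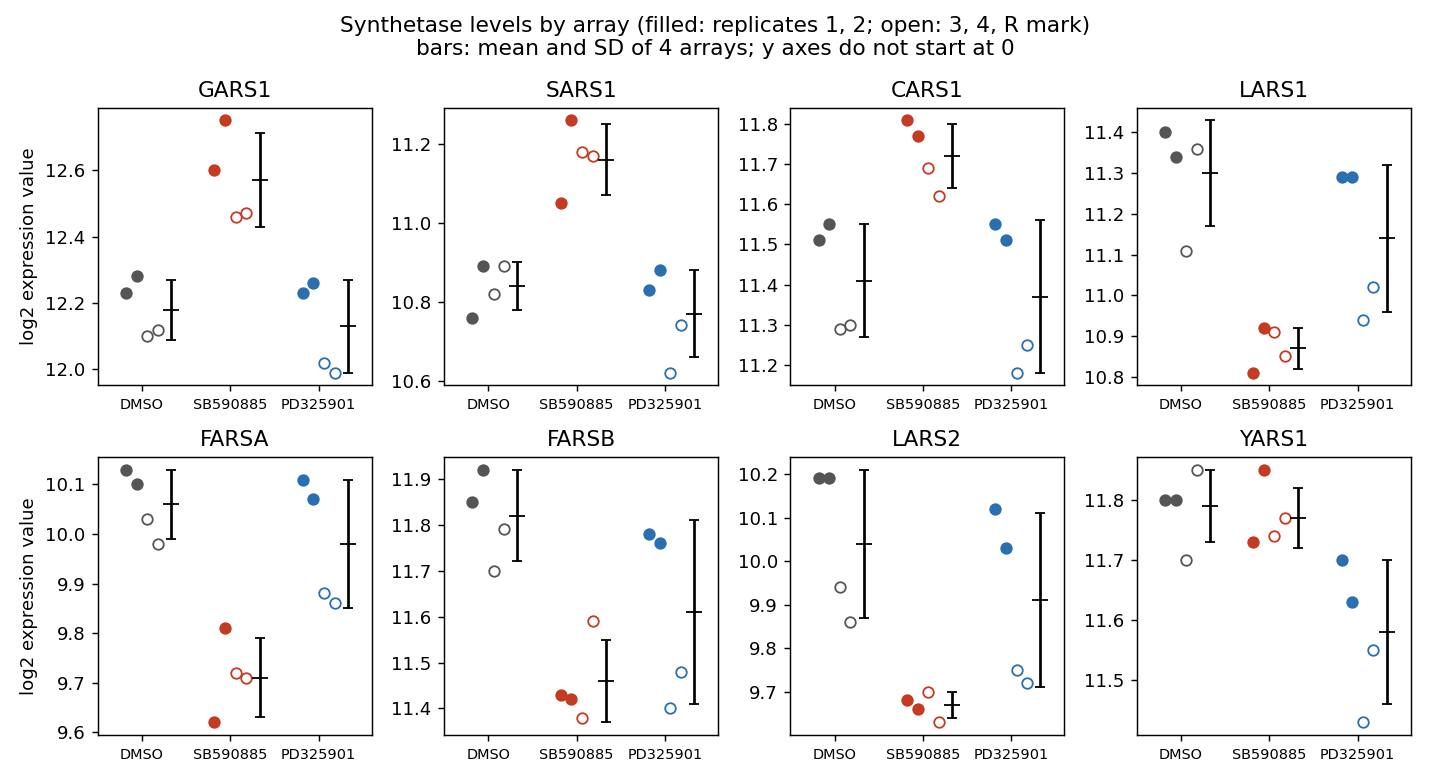
Deposited log2 expression values (y axes, each with its own range and not starting at 0) of 8 synthetase genes on every array, by treatment group. Filled points are replicates 1 and 2, open points replicates 3 and 4, which carry the R mark, and bars give the mean and SD of 4 arrays. The SB590885 arrays lie above the DMSO arrays for GARS1, SARS1 and CARS1 and below them for LARS1, FARSA, FARSB and LARS2, while YARS1 is low with PD325901.

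Several enzymes of the cytosol work together in the multisynthetase complex, a scaffolded assembly that holds the enzymes of EPRS1, IARS1, KARS1, LARS1 and RARS1 among others. All 5 measured members were lower after SB590885, with a median of -0.22 and a range from -0.43 to -0.10, and 1 of them, LARS1, passed (20% against 3.28% of all genes). With the block IARS1 (-0.23, adjusted p = 0.00339) and KARS1 (-0.22, adjusted p = 0.013) passed as well, while EPRS1 (-0.10) and RARS1 (-0.13) did not. KARS1, the lysine enzyme, had its other probe set at -0.33 with no overlap between the groups. VARS1, the valine enzyme, which stands outside this list, was lower by 0.19 and passed with the block (adjusted p = 0.00812).

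None of the 15 measured mitochondrial enzymes passed after SB590885 in the limma fit, where 0 were higher and 4 lower at an unadjusted p under 0.05, a side on which 6.84% of all genes lay, with 6.7% on the higher side. Of the 15, 12 were lower and 3 higher in sign, 9 were lower in all 4 same-numbered pairs, and the median was -0.14, beside -0.10 for the 17 cytosolic members and 0.00 for all genes. LARS2, the leucine enzyme of the mitochondrion, was the closest to passing. It read 10.19, 10.19, 9.94 and 9.86 with DMSO, and 9.68, 9.66, 9.7 and 9.63 with SB590885. The groups did not overlap, yet the DMSO arrays spread with the R mark and the SB590885 arrays did not, and the difference was -0.52 without the mark and -0.24 with it. Over all arrays LARS2 differed by -0.38 (SE 0.10, limma adjusted p = 0.0673, and 0.000697 with the block), and its other probe set by -0.23, again with no overlap.

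With the replicate number as a block, 6 mitochondrial members were called lower and 0 higher, against 9.84% and 9.09% of all genes. Beside LARS2 these were YARS2 for tyrosine (-0.30, adjusted p = 0.00105), CARS2 for cysteine (-0.21, adjusted p = 0.0145), MARS2 for methionine (-0.28, adjusted p = 0.0209), WARS2 for tryptophan (-0.17, adjusted p = 0.032) and NARS2 for asparagine (-0.20, adjusted p = 0.0366). Other probe sets, of lower signal, differed by -0.06, 0.11, 0.14 and -0.02 for CARS2 and by 0.02 and -0.06 for WARS2, in order of signal. The block called 9 cytosolic members, 3 higher (CARS1, GARS1, SARS1) and 6 lower (FARSA, FARSB, IARS1, KARS1, LARS1, VARS1). Counts of arrays without overlap gave 7 members lower (LARS1, FARSA, FARSB, LARS2, CARS2, MARS2 and NARS2), against 5.76% of all genes.

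The remaining members did not pass in either fit. The mitochondrial enzymes for arginine (RARS2, 0.12), serine (SARS2, 0.11) and histidine (HARS2, 0.08) were the 3 above 0, and VARS2 (-0.14), EARS2 (-0.17), FARS2 (-0.14), AARS2 (-0.12), IARS2 (-0.10) and PARS2 (-0.01) lay below. In the cytosol WARS1 (0.09), NARS1 (0.01), YARS1 (-0.02), HARS1 (-0.10) and TARS1 (-0.12) made up the rest. A p that misses the threshold does not show that these did not change: the 95% interval of TARS1, for one, ran from -0.43 to 0.19.

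**Figure D2:**
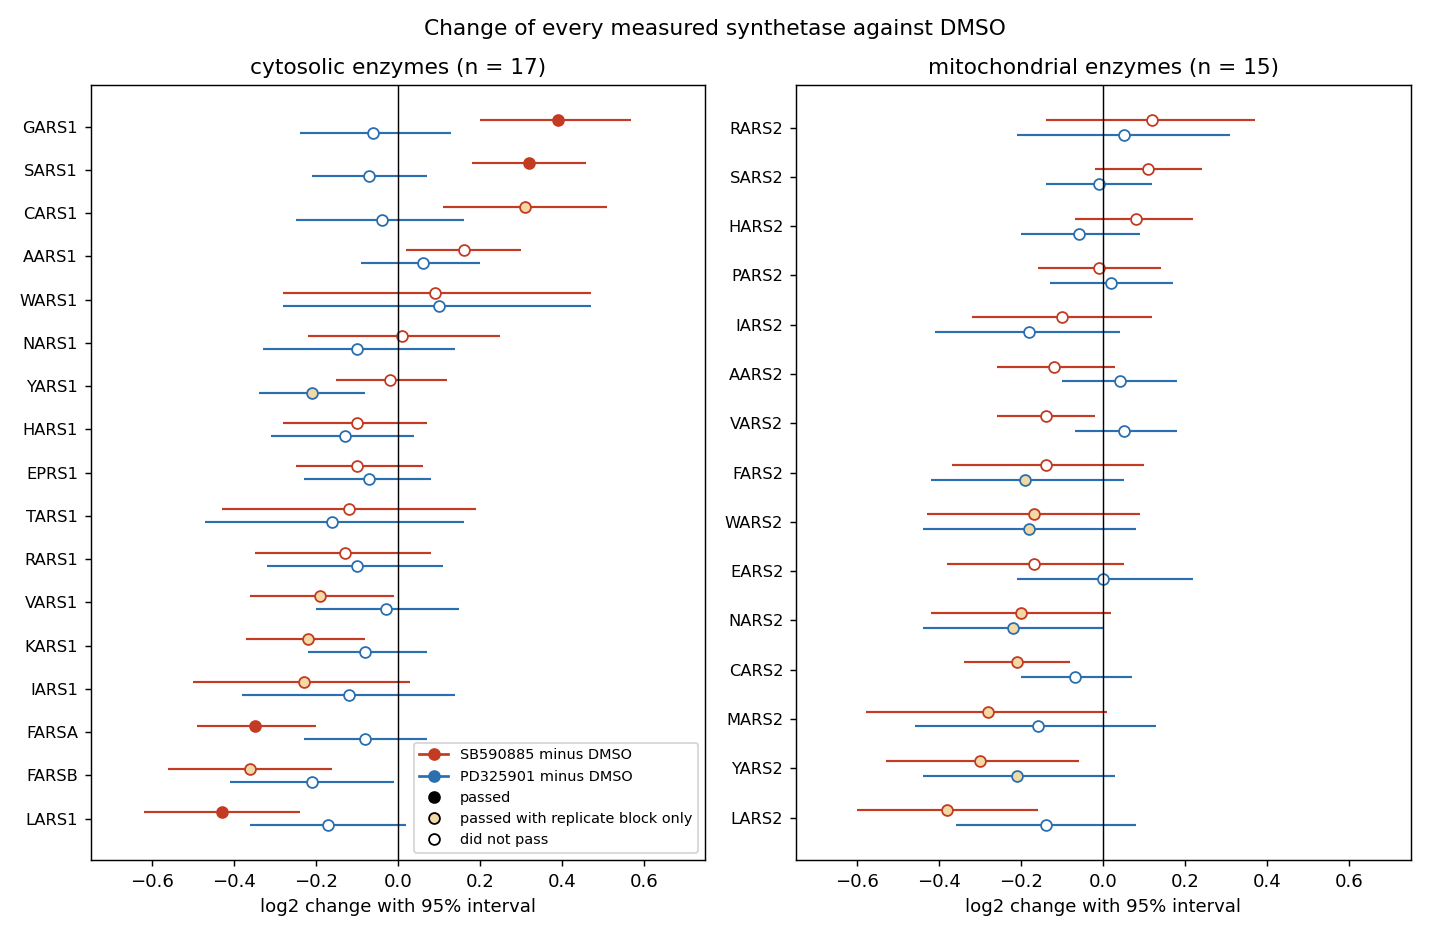
Log2 change (x axis) of each of the 17 cytosolic and 15 mitochondrial members against DMSO, for SB590885 (red) and PD325901 (blue), with 95% intervals from the limma fit over 12 arrays. Solid points passed, tan points passed only with the replicate block, and open points passed in neither fit. Only GARS1, SARS1, FARSA and LARS1 are solid, all of them for SB590885.

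Other measures differed between the SB590885 and DMSO groups. The plasma cell markers had array medians of 11.14 to 11.57 with SB590885 and 11.59 to 11.84 with DMSO. Of the 9, 3 fell (SDC1, XBP1 and SLAMF7) and 0 rose, beside 1.69% and 1.59% of all genes. The log2 difference between 3' and 5' control probe sets of GAPDH, a sign of RNA integrity, was 0.44 ± 0.0352 (SD, n = 4) with SB590885 and 0.371 ± 0.033 with DMSO, with overlap (0.39 to 0.47 and 0.33 to 0.4), and that of ACTB was 1.65 ± 0.172 and 1.58 ± 0.169. The part of either in the synthetase values was not tested. Genes restricted to other tissues had array medians of 6.59 to 6.86. The array medians of T and NK cell (6.72 to 6.93), monocyte (6.59 to 6.76) and fibroblast markers (6.7 to 6.95) overlapped that range, with COL1A1 among the last at 7.92 to 8.53, and those of 5 B cell markers lay above it, at 7.05 to 7.28. Of the 5 B cell markers 1, PAX5, fell after SB590885, with DMSO arrays at 7.52 to 7.88 and SB590885 arrays at 7.2 to 7.34. Of the 8 T and NK cell markers 1, CD8A, fell, with DMSO arrays at 7.44 to 7.67 and SB590885 arrays at 7.08 to 7.34. The part of these markers in the synthetase values was not tested either.

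Enzymes for the same amino acid in both compartments could be set side by side in 15 pairings, in which EPRS1 and FARS2 each stand 2 times. After SB590885 the signs of both enzymes were the same in 9 pairings and opposite in 6. The leucine enzymes lay below DMSO in both compartments, with -0.43 for LARS1 and -0.38 for LARS2. The cysteine enzymes differed most, with 0.31 for CARS1 and -0.21 for CARS2, a distance of 0.52. Their other probe sets, of lower signal, ran from -0.01 to 0.26 for CARS1 and from -0.06 to 0.14 for CARS2. The tyrosine enzymes gave -0.02 for YARS1 and -0.30 for YARS2, and the serine enzymes 0.32 for SARS1 and 0.11 for SARS2. No test of these distances was made, because they compare different probe sets on the same arrays.

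**Figure D3:**
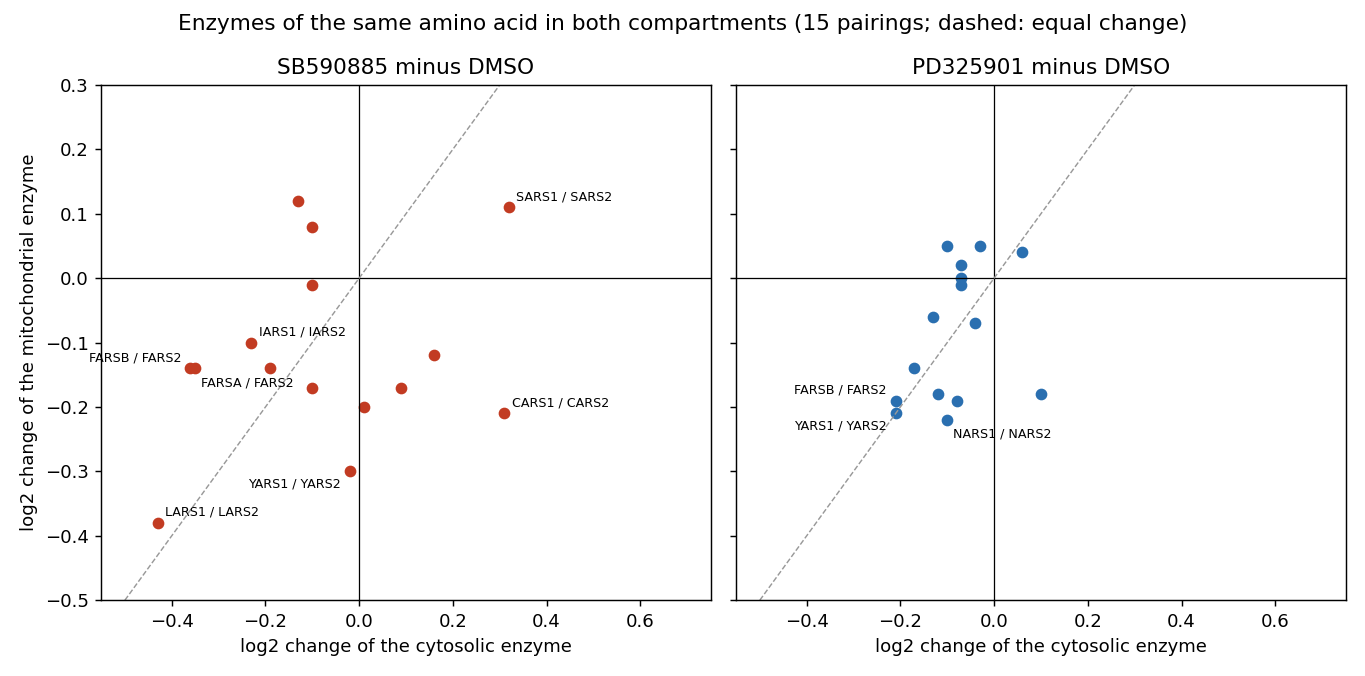
Log2 change of the cytosolic enzyme (x axis) against that of the mitochondrial enzyme for the same amino acid (y axis) in 15 pairings, after SB590885 (left) and PD325901 (right). Each point is 1 pairing from group means of 4 arrays, named where a change is larger than 0.2, and the dashed line marks equal change. After SB590885 CARS1 / CARS2 lies at 0.31 and -0.21 and LARS1 / LARS2 at -0.43 and -0.38, while after PD325901 no point lies beyond 0.22 from 0 on either axis.

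Over all arrays, the synthetases stayed closer to their DMSO values after PD325901 than after SB590885. With limma 0 of 32 members passed, against 0.592% of all genes (0.086% higher, 0.506% lower), and at an unadjusted p under 0.05 there were 0 higher and 2 lower, YARS1 and FARSB, against 2.07% and 4.73% of all genes. No member differed by more than 0.22, and 25 of 32 were lower in sign. The medians were -0.08 for the cytosolic and -0.07 for the mitochondrial enzymes, but quantile normalisation of the arrays brought them to -0.01 and 0.02 and the lower signs to 17 of 32, so a common direction depended on the scaling. It also differed with the R mark. On arrays without the mark the medians were -0.02 and -0.01 with 20 of 32 members lower in sign, and on arrays with it -0.16 and -0.17 with 29 of 32. After SB590885 the medians were -0.17 and -0.14 without the mark (23 of 32 lower) and -0.02 and -0.13 with it (22 of 32). On arrays with the mark the PD325901 medians thus lay farther below DMSO than those of SB590885.

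YARS1, the tyrosine enzyme of the cytosol, had the smallest p. It read 11.8, 11.8, 11.7 and 11.85 with DMSO, 11.7, 11.63, 11.43 and 11.55 with PD325901, and 11.73, 11.85, 11.74 and 11.77 with SB590885. No PD325901 array lay above a DMSO array, the highest of one and the lowest of the other both printing as 11.7, and the SB590885 arrays lay among the DMSO arrays. The difference from DMSO was -0.21 (SE 0.06, limma adjusted p = 0.241) and passed with the block (adjusted p = 0.0151). It was -0.14 without the R mark and -0.29 with it, and the other probe set, of lower signal, gave -0.08. It was the only member with no overlap in this comparison, against 2.68% of all genes in that direction and 1.4% in the other.

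With the block, 4 mitochondrial members also passed, all lower, so that 5 of 32 were called (15.6%), against 8.14% of all genes, 6.18% lower and 1.96% higher. They were NARS2 (-0.22, adjusted p = 0.0472), YARS2 (-0.21, adjusted p = 0.0259), FARS2 for phenylalanine (-0.19, adjusted p = 0.0363) and WARS2 (-0.18, adjusted p = 0.046). For NARS2, FARS2 and WARS2 the difference was larger in the arrays with the R mark (-0.33, -0.25 and -0.25) than in those without it (-0.11, -0.12 and -0.11), and for YARS2 it was -0.21 and -0.20. The next members by p did not pass in either fit: FARSB (-0.21), LARS1 (-0.17) and IARS2 for isoleucine (-0.18). GARS1 (-0.06), SARS1 (-0.07) and CARS1 (-0.04) had 95% intervals that ran from -0.25 at the lowest to 0.16 at the highest.

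The inhibitors were then compared with each other, on the SB590885 and PD325901 arrays already used against DMSO. GARS1 was 0.44 higher with SB590885 than with PD325901 (SE 0.08, 1.36-fold, limma adjusted p = 0.0161), and SARS1 0.40 higher (SE 0.06, 1.32-fold, limma adjusted p = 0.00733). On the PD325901 arrays GARS1 read 12.23, 12.26, 12.02 and 11.99, and SARS1 read 10.83, 10.88, 10.62 and 10.74. Both genes kept all SB590885 arrays above all PD325901 arrays. They were the 2 of 32 members that passed, beside 2.82% of all genes (1.97% higher, 0.855% lower), and no mitochondrial member did (0 higher and 4 lower at an unadjusted p under 0.05, against 8.54% and 4.31% of all genes). The plasma cell markers also differed between these groups, with array medians of 11.14 to 11.57 with SB590885 and 11.76 to 12.1 with PD325901, and 4 of the 9 were called lower (XBP1, TNFRSF17, SLAMF7 and MZB1) and 0 higher, at a median of -0.53; their part in the synthetase values was not tested. GARS1 lost this call without SB590885 replicate 1 (adjusted p = 0.0525), and SARS1 kept its call whichever array was left out.

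With the block 10 of 32 members (31.2%) were called between the inhibitors, against 18.1% of all genes, 12.4% higher and 5.73% lower. CARS1 (0.35, adjusted p = 0.00015) and YARS1 (0.20, adjusted p = 0.0105) joined the 2 higher members. FARSA (-0.27, adjusted p = 0.00316), LARS1 (-0.26, adjusted p = 0.0123), LARS2 (-0.24, adjusted p = 0.0146), VARS1 (-0.16, adjusted p = 0.0194), VARS2 for mitochondrial valine (-0.19, adjusted p = 0.022) and AARS2 for mitochondrial alanine (-0.16, adjusted p = 0.0303) were lower. FARSA, at 9.86 to 10.11 with PD325901 and 9.62 to 9.81 with SB590885, and LARS1, at 10.94 to 11.29 and 10.81 to 10.92, kept the groups apart on all arrays. Over all arrays 4 members did so higher and 4 lower, against 4.68% and 2.5% of all genes. The other LARS1 probe sets, of lower signal, gave -0.1, 0.19 and -0.08 in order of signal, the 0.19 also with no overlap.

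The family medians of this comparison had opposite signs on arrays with and without the R mark. Without the mark, the cytosolic members were lower with SB590885 than with PD325901 (median -0.12, with 2 called higher and 6 lower), and so were the mitochondrial members (median -0.15, with 0 called higher and 4 lower). With the mark, both medians were 0.10, with 4 cytosolic and 1 mitochondrial members called higher and 0 lower. The calls over all genes also leaned to the higher side on arrays with the mark, at 7.32% higher and 1.63% lower, against 6.38% and 5.55% on arrays without it. Over all arrays the medians were -0.01 and -0.03. Each set holds 2 arrays a group. The family medians on single arrays spread most within the PD325901 group. Against each gene's own mean, PD325901 replicates 1 and 2 lay at 0.13 and 0.05 for the cytosolic members and replicates 3 and 4 at -0.22 and -0.15, while the SB590885 arrays stayed between -0.06 and 0.02.

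**Figure D4:**
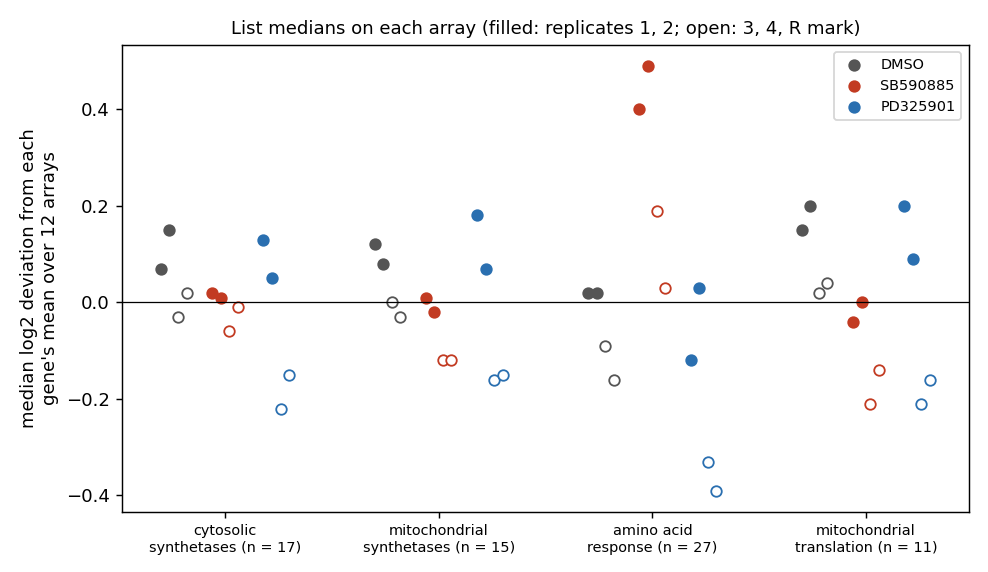
Median log2 deviation from each gene's mean over 12 arrays (y axis) for 4 gene lists (x axis) on each array, coloured by treatment; filled points are replicates 1 and 2 and open points replicates 3 and 4, with the R mark. For both synthetase lists PD325901 spans the widest range, from -0.22 to 0.13 for the cytosolic members and from -0.16 to 0.18 for the mitochondrial ones. The amino acid response genes are highest on SB590885 replicates 1 and 2, at 0.40 and 0.49.

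Genes around the enzymes were read from lists of the same pathway. Of 27 genes of the amino acid response measured, 8 rose and 0 fell after SB590885 (29.6%, against 3.28% of all genes, 1.59% higher and 1.69% lower), and the median was 0.35. The count of higher calls was 4 on centred arrays, 2 without all replicate 2 arrays, 14 with quantile normalisation (and 1 lower) and 19 with the block (and 2 lower), at medians of 0.33 to 0.39. Over all 19775 genes the higher calls in these settings numbered 143, 41, 869 and 1797. The lower calls over all genes were 764 with quantile normalisation and 1945 with the block. SESN2, which restrains growth signalling when leucine is short, rose by 1.02 (limma adjusted p = 0.0013), CHAC1, which degrades glutathione, by 0.59 (0.00632), PHGDH, which opens the serine pathway, by 0.40 (0.00632) and SLC7A11, a cystine importer, by 1.01 (0.0122). After PD325901 0 of the 27 passed, at a median of -0.07, with 0 higher and 3 lower at an unadjusted p under 0.05 (4.73% of all genes were lower); with the block 6 were called lower, beside 6.18% of all genes. TRIB3, a target of ATF4, had the smallest p there (-0.53, limma adjusted p = 0.11, and 0.000239 with the block).

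ATF4 itself read higher on every SB590885 array than on any DMSO array, with a difference of 0.35 (SE 0.11, limma adjusted p = 0.127, and 0.000215 with the block). Between the inhibitors ATF4 was 0.53 higher with SB590885 (limma adjusted p = 0.024). Of the 27 response genes 10 were called higher and 1, VLDLR, lower, against 1.97% and 0.855% of all genes. The counts were 5 and 0 both on centred arrays and without all replicate 2 arrays, and 18 and 1 with quantile normalisation. Over all genes the calls in these 3 settings were 209 and 98, 121 and 59, and 877 and 678. Of the 9 kinases and phosphatases around this response, GCN1, which helps the kinase GCN2 to sense uncharged tRNA, fell by 0.32 after SB590885 (limma adjusted p = 0.0195). PPP1R15A, which reverses the block that the kinase places on translation, rose by 0.58 (limma adjusted p = 0.0435), and the other 7 did not pass. Of all genes, 1.59% rose and 1.69% fell after SB590885.

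The promoter matches can be set beside these changes for the 14 cytosolic members with a window. Of the 6 with an amino acid response element match, 4 were higher than DMSO in sign after SB590885 (GARS1, CARS1, AARS1 and NARS1, the last by 0.01) and 2 lower, from -0.23 to 0.39. Of the 8 without a match, 2 were higher (SARS1 and WARS1) and 6 lower, from -0.36 to 0.32. After PD325901 1 of the 6 and 1 of the 8 were higher. YARS2, the mitochondrial gene with a match, was lower by 0.30 with SB590885. No test was made of these counts.

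Partners of the enzymes and the mitochondrial translation factors had no called gene. Of 11 genes for tRNA-charging partners 0 passed after SB590885, at a median of -0.07, and with the block 1 was higher and 4 lower, against 9.09% and 9.84% of all genes. The lowest was QRSL1 (-0.45, limma adjusted p = 0.113, and 0.00161 with the block), a subunit of the enzyme that makes mitochondrial glutaminyl-tRNA from the glutamyl form, since this organelle's glutamine tRNA is first charged with glutamate by EARS2. Of 11 mitochondrial translation factors 0 passed, 10 were lower in sign, the median was -0.24, and 0 were higher and 5 lower at an unadjusted p under 0.05, against 6.7% and 6.84% of all genes. MTIF2 and MTIF3, which start translation there, were both lower by 0.39 (limma adjusted p = 0.129 and 0.142), and 6 of the 11 were called lower with the block, beside 9.84% of all genes.

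WARS1, the tryptophan enzyme of the cytosol, is an interferon-induced gene, and its RefSeq promoter window holds a match to an interferon element searched on both strands as 2 copies of GAAA with 2 bases between them, a form found in the windows of 4.38% of all genes. It stood in 1 of 14 cytosolic members, WARS1, and 1 of 13 mitochondrial members, EARS2, which had 2 matches. The WARS1 match is in capitals in the stretch below, at position -55.
WARS1, chr14:100375381-100375460, minus strand: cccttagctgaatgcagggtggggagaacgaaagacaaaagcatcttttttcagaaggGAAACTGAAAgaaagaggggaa

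WARS1 read 10.09, 10.68, 10 and 10.04 on DMSO replicates 1 to 4, 10.29, 10.51, 10.28 and 10.11 with SB590885, and 10.25, 10.74, 10.15 and 10.07 with PD325901. In each group replicate 2 was the highest array, and the arrays with the highest interferon response genes, DMSO 2 and PD325901 2, gave the highest WARS1 values of all. Replicate 2 was the highest array of every group in 3 of the 32 members, WARS1, GARS1 and EARS2; EARS2 read 9.04, 8.81 and 9.11 there, against 8.6 to 9.06 on the other arrays. WARS1 differed from DMSO by 0.09 with SB590885 and by 0.10 with PD325901 and passed in neither (limma adjusted p = 0.947 and 0.987). Its 95% intervals, from -0.28 to 0.47 in both comparisons, were the widest among the members. When all replicate 2 arrays were left out, none of the 4 members called after SB590885 passed in the fit without the block. Limma adjusted p were 0.104 (FARSA), 0.111 (GARS1), 0.119 (SARS1) and 0.132 (LARS1), while the differences were -0.36, 0.36, 0.31 and -0.43. Calls over all 19775 genes also dropped there, from 315 higher and 334 lower to 41 and 37. With the block and the same omission 7 cytosolic members passed, 3 higher and 4 lower.

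**Figure D5:**
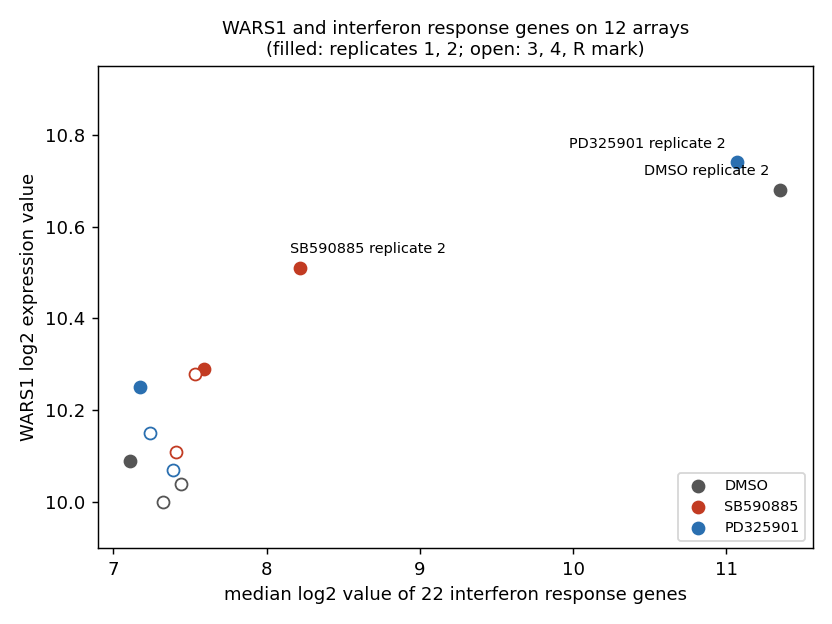
Log2 expression value of WARS1 (y axis) against the median log2 value of 22 interferon response genes (x axis) on each of the 12 arrays, coloured by treatment, with open points for the R mark. Replicate 2 of DMSO (11.35, 10.68) and of PD325901 (11.07, 10.74) lie apart at the upper right, and SB590885 replicate 2 (8.22, 10.51) comes next.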

How the data were processed

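The authors deposited log2 expression values per probe set, made with RMA in R 3.0.1 per the submitters' processing notes. No source used here says if all arrays were normalised together. Of 54675 probe sets, 62 controls were left out; 41091 had 1 gene symbol, 1801 had several and 11721 had none. Each of 19775 genes was represented by its probe set of highest mean. No depth applies to arrays: precision rests on 4 arrays a group. Array minima lay between 5.85 and 6.01.

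A group-means model over all 12 arrays was fitted with limma 3.58.1 in R 4.3.3, with Benjamini-Hochberg adjustment over all genes of a comparison and a call at adjusted p under 0.05. The fit was tested on simulated data. The labels number the arrays 1 to 4 in each group. Once group means were removed, arrays with the same number correlated across groups by 0.544 or more in all 12 pairs (highest 0.913), and each of the 12 arrays was closest to one of its own number. Same-numbered arrays were therefore taken as paired, but the main fit and the fits with single arrays left out did not use this pairing. Fits with the number as a block are given where they change a call or a count. With the block GARS1, SARS1, LARS1 and FARSA kept their calls against DMSO after SB590885.

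The members and lists were chosen with earlier results of these data known. Values are named for members that passed in either fit and for the 3 cytosolic and 3 mitochondrial members of smallest p in each comparison; of other lists, counts, medians and up to 4 members of smallest p. WARS1, ATF4, GARS1, SARS1 and CARS1 where they did not pass, the ERK target DUSP6, COL1A1, the array values of EARS2 and the side-by-side pairings were picked after their values were seen. Alternatives were scaling, probe set choice, a filter on low genes, a trend prior, the block, the R mark and each array left out; 3 were added after seeing the data, namely the block with centred arrays, all replicate 2 arrays left out, and both the block and that omission. Promoter letters are RefSeq's, GRCh38.p14.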

Additional observations from a re-analysis of the deposited data

Results flagged for a closer look

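In 96 groups of 4 arrays (32 members in 3 groups), 1 array lay far from its 3 neighbours in 3 cases by Dixon's criterion; chance alone gives about 1 in 20 groups. WARS1 stood at 10.68 on DMSO replicate 2 against 10 to 10.09 on the other DMSO arrays, and this array also carried high interferon response genes. AARS2 stood at 8.77 on DMSO replicate 3, against 8.86 to 8.87. SARS2, the serine enzyme of the mitochondrion, stood at 8.26 on DMSO replicate 2, against 8.35 to 8.36. None of these 3 genes was called against DMSO.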

How the results depend on the processing

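The paired analysis with the replicate block gave 9 called cytosolic and 6 called mitochondrial members for SB590885 against DMSO (4 and 0 without it), 1 and 4 for PD325901 against DMSO (0 and 0) and 7 and 3 between the inhibitors (2 and 0). Of all genes the block called 18.9%, 8.14% and 18.1% in these comparisons, against 3.28%, 0.592% and 2.82% without it. The same 6 counts of members came with the block on centred arrays. With the block and all replicate 2 arrays left out they were 7 and 3, 1 and 1, and 4 and 0, and the cytosolic median between the inhibitors turned to 0.07. The R mark as a term gave 8 and 5, 1 and 2, and 6 and 3. Over all genes this term called 1614 higher and 1717 lower after SB590885, 289 and 1000 after PD325901, and 2237 and 950 between the inhibitors. Arrays without the R mark gave 9 and 5 (cytosolic median -0.17) for SB590885 against DMSO and 8 and 4 (medians -0.12 and -0.15) between the inhibitors. Over all genes these arrays called 1290 higher and 1347 lower for SB590885 against DMSO, and 1261 and 1097 between the inhibitors. Arrays with the mark gave a cytosolic median of -0.02 for SB590885 against DMSO and 1 mitochondrial call for PD325901. Between the inhibitors they gave 4 and 1 calls at medians of 0.10 and 0.10. Over all genes they called 112 higher and 967 lower for PD325901, and 1448 and 322 between the inhibitors.

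For SB590885 against DMSO, cytosolic calls numbered 0 on centred arrays, 0 without all replicate 2 arrays and 1 with a trend prior. Only 12 of the 17 cytosolic members have a plain probe set, GARS1 and LARS1 not among them. Of these 12, 2 were called with plain probe sets only, 1 higher and 1 lower, at a median of -0.01. Quantile normalisation gave a cytosolic median of -0.04 and 4 mitochondrial calls, and the mean of all probe sets 1 mitochondrial call at a median of -0.07. Between the inhibitors cytosolic calls numbered 1 on centred arrays, 1 of the same 12 members with plain probe sets (median 0.03), 1 without all replicate 2 arrays (median 0.07) and 4 with quantile normalisation, which also called 2 mitochondrial members. Leaving out 1 array at a time gave 0 to 5 cytosolic and 0 to 1 mitochondrial calls for SB590885 against DMSO (medians -0.14 to -0.07 and -0.18 to -0.11), 0 to 0 for PD325901 (medians -0.12 to -0.04 in both) and 1 to 3 and 0 to 0 between the inhibitors (medians -0.07 to 0.03 and -0.08 to 0.01).

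The called members kept their direction under every alternative run (GARS1 and LARS1 have no plain probe set); of the 32 uncalled values for PD325901, 8 turned sign with quantile normalisation. Calls of GARS1, SARS1, LARS1 and FARSA after SB590885 were lost on centred arrays (adjusted p = 0.11, 0.0633, 0.0548 and 0.0512), and 3 of them with a trend prior (GARS1 0.0571, SARS1 0.0874, FARSA 0.0701). The mean over probe sets removed the call of SARS1 (adjusted p = 0.342, and 0.13 between the inhibitors). Between the inhibitors SARS1 was also lost on arrays without the R mark (0.0531), and GARS1 on centred arrays (0.0621) and without all replicate 2 arrays (0.0533). Over all genes, quantile normalisation moved the split of calls from 315 higher and 334 lower to 869 and 764 after SB590885, from 17 and 100 to 173 and 176 after PD325901, and from 389 and 169 to 877 and 678 between the inhibitors. Centring gave 143 and 239 after SB590885 and 209 and 98 between the inhibitors. Without all replicate 2 arrays these were 41 and 37, and 121 and 59. The cause of these changes was not tested.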

Other observations

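Synthetases fall into a pair of structural classes, which differ in the fold of the catalytic domain. Of 16 measured class I members, 13 were lower in sign after SB590885, at a median of -0.17, with 0 risen and 1 fallen (LARS1); of 15 class II members, 9 were lower, at a median of -0.10, with 2 risen (GARS1 and SARS1) and 1 fallen (FARSA), beside 1.59% of all genes risen and 1.69% fallen. With the block class I had 1 higher and 8 lower and class II 2 higher and 4 lower, beside 9.09% and 9.84% of all genes. The difference between the classes was not tested.

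HARS1 and HARS2, the histidine enzymes of the cytosol and the mitochondrion, start back to back on chromosome 5, with 85 bases between their RefSeq starts (140691370 on the minus strand and 140691455 on the plus strand, GRCh38.p14). Their probe sets differed from DMSO by -0.10 and 0.08 after SB590885 and by -0.13 and -0.06 after PD325901, and none of these passed with limma or with the block. The letters CCGGAAG, the core bound by ETS factors, several of which ERK acts on, stood on either strand in the windows of 9 of 14 cytosolic and 6 of 13 mitochondrial members, against 12.2% of all genes, and the E-box CACGTG, bound by MYC among others, in 1 and 3 against 8.77%. Base composition was not matched in these counts. The windows of HARS1 and HARS2 overlap, and the same CCGGAAG matches were counted for HARS1 in the cytosol and for HARS2 in the mitochondrion.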
